A study of Mus musculus with 8 samples.

Results

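Genes of the GDNF family and of neurotrophin signalling were examined in the epithelium of back skin from mouse embryos at E15.5, in 4 Foxi3 null embryos (Foxi3-/-) and 4 wild-type embryos (Foxi3+/+). The 9 genes are the co-receptors Gfra1, Gfra2 and Gfra3, the receptor Ret, the ligands Gdnf and Nrtn, the neurotrophin receptor Ngfr, and the neurotrophins Ntf3 and Bdnf. They are 9 of the 26165 genes in the deposited table, with 1 row each. Gfra2 was chosen by its measured rise in these same Foxi3 null samples over wild type, so its difference between the groups is given as a description with no test. The other 8 genes were added as its family and as neurotrophin genes of skin.

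Ligands of the GDNF family bind a GFRα co-receptor tethered to the cell surface, and the complex then activates the receptor tyrosine kinase Ret. GDNF prefers GFRα1, neurturin prefers GFRα2 and artemin prefers GFRα3. Neurotrophins bind Trk receptors and, with less selectivity, the p75 receptor encoded by Ngfr. In skin both families are known for guiding and maintaining sensory nerves, and neurotrophins and p75 also act on hair follicles.

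Each array held RNA from the epithelium of 1 embryo, and the epithelium had been separated from dermis with dispase. The embryos carried a total null allele of Foxi3, a forkhead transcription factor gene, or were wild-type littermates on a C57/Bl6 background, from 4 litters that no source ties to single embryos. The p-values therefore measure the spread between embryos treated as independent. All levels are log2 intensities after RMA, so a difference of 1 is a doubling of intensity. Intensities of different genes come from different probes and do not rank the genes by transcript number. Since each sample is a bulk tissue, fewer cells of a type and less RNA per cell cannot be told apart.

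Foxi3 itself was at 8.62, 8.43, 8.45 and 8.19 in Foxi3 null 1 to 4 and at 8.96, 9.07, 9.20 and 8.55 in wild type 1 to 4. In 3 of 4 null samples it lay below every wild-type sample, and the difference of −0.52 (SE 0.15) failed the test over all genes (limma adjusted p = 1.00). No source used here says whether the Foxi3 probes fall inside the deletion, so this level does not check the genotype. Epithelial markers were even, with a mean of 8 genes between 10.40 and 10.45 in all samples. Foxi3 null 2 stood apart in dermal fibroblast markers, with a mean of 8.90 over 10 genes against 6.97 to 7.35 in the other samples. Foxi3 null 4 and wild type 4 stood apart in immediate-early genes, which handling of tissue can induce, with means over 10 genes of 8.64 and 9.62 against 7.12 to 7.58 elsewhere. By Ddx3y, a Y-linked gene, Foxi3 null 3 (7.69) and wild type 3 and 4 (7.98 and 8.13) were male, and the others lay between 2.34 and 2.67. For the 9 genes, results below are given without Foxi3 null 2, or without both samples numbered 4, where that moves the difference by over 1.5 times. For the further genes named below these omissions are not given.

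Promoter windows are shown because Foxi3 belongs to the forkhead family and because the levels of these genes are compared between embryos with and without it. Windows from the reference promoter table of RefSeq (GRCm38.p6) were used for 6 of the 9 genes, which were Gfra1, Nrtn, Gdnf, Ntf3, Ngfr and Bdnf. Any window of the 9 genes on 1 other chromosome was left out of the search. Each window runs from 250 bases before to 50 bases after a start site. The forkhead core was searched as TGTTTA or TATTTA on both strands, which read TAAACA or TAAATA on the other strand, and capitals mark the matches. The windows lie at chr19:58455349-58455648 (minus strand) for Gfra1, chr17:56757499-56757798 (minus strand) for Nrtn, chr15:7809798-7810097 (plus strand) for the first Gdnf window and chr6:126166695-126166994 (minus strand) for the first Ntf3 window.
Gfra1: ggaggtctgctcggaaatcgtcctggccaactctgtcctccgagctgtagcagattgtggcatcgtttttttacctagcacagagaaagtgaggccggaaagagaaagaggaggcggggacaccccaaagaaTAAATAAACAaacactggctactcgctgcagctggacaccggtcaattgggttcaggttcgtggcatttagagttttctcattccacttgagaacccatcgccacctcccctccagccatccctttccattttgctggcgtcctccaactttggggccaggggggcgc
Nrtn: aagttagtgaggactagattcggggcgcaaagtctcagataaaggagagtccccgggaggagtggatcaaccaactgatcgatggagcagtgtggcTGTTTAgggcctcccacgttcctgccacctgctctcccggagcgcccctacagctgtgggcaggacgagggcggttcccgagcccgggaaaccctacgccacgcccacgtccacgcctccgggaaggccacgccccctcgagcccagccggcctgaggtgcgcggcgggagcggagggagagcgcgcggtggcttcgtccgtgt
Gdnf: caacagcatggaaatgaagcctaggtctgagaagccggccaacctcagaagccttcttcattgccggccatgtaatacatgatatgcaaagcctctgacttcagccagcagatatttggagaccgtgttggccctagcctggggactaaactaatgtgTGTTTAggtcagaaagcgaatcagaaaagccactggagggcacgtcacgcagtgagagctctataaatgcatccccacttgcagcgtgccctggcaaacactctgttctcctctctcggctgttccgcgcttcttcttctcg
Ntf3: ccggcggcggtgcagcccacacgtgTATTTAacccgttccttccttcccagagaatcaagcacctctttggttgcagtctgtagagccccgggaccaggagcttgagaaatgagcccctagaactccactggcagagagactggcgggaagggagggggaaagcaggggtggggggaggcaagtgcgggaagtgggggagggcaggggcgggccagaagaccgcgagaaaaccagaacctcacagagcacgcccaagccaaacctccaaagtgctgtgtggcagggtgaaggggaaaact
In the Gfra1 window 2 matches overlapped, beginning 118 bases before the start site. The other windows shown held 1 match each, 154 bases before the start site for Nrtn, 92 for Gdnf and 225 for Ntf3. Of the 14 windows used for the 6 genes, 7 held a match, against 24.1% of the 32851 windows in the table. The windows with a match were 1 of 1 for Gfra1, 1 of 1 for Nrtn, 2 of 2 for Gdnf, 1 of 2 for Ntf3, 0 of 1 for Ngfr and 2 of 7 for Bdnf. A match of letters is a description and shows no binding.

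Among the co-receptors, Gfra1 and Gfra2 were higher in Foxi3 null than in wild-type epithelium in every sample, and Gfra3 overlapped between the groups. Gfra2 (ENSMUSG00000022103), which encodes the preferred receptor of neurturin, was at 5.16, 5.21, 5.05 and 5.05 in Foxi3 null 1 to 4. In wild type 1 to 4 it was at 4.60, 4.76, 4.69 and 4.82. The groups did not overlap, and their means were 5.12 ± 0.08 and 4.72 ± 0.10 (SD, n = 4 each), a difference of 0.40 or 1.32-fold. This difference is what brought Gfra2 into the set. Without Foxi3 null 2 it was 0.37, and without both samples numbered 4 it was 0.46.

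Gfra1 (ENSMUSG00000025089) encodes the preferred receptor of GDNF and was not picked for its own level. It was at 5.92, 6.08, 5.53 and 5.75 in Foxi3 null 1 to 4, and at 5.41, 5.36, 5.44 and 5.32 in wild type 1 to 4. Each of the 4 null samples was above every wild-type sample, with Foxi3 null 3 nearest to them, and the null samples were spread more widely. Group means were 5.82 ± 0.24 in null and 5.38 ± 0.06 in wild type (SD, n = 4 each). The difference of 0.44 (SE 0.11, 1.35-fold) had an unadjusted 95% interval of 0.18 to 0.69. It failed the test over all genes (limma adjusted p = 1.00, unadjusted p = 0.00358). Of all genes, 0.0115% passed at adjusted p under 0.05, 3.72% had an unadjusted p under 0.05, and 0.871% had every null sample above every wild-type sample. Among the 8 genes not picked for their level, Gfra1 alone had an unadjusted p under 0.05, and it alone had groups that did not overlap.

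**Figure D1:**
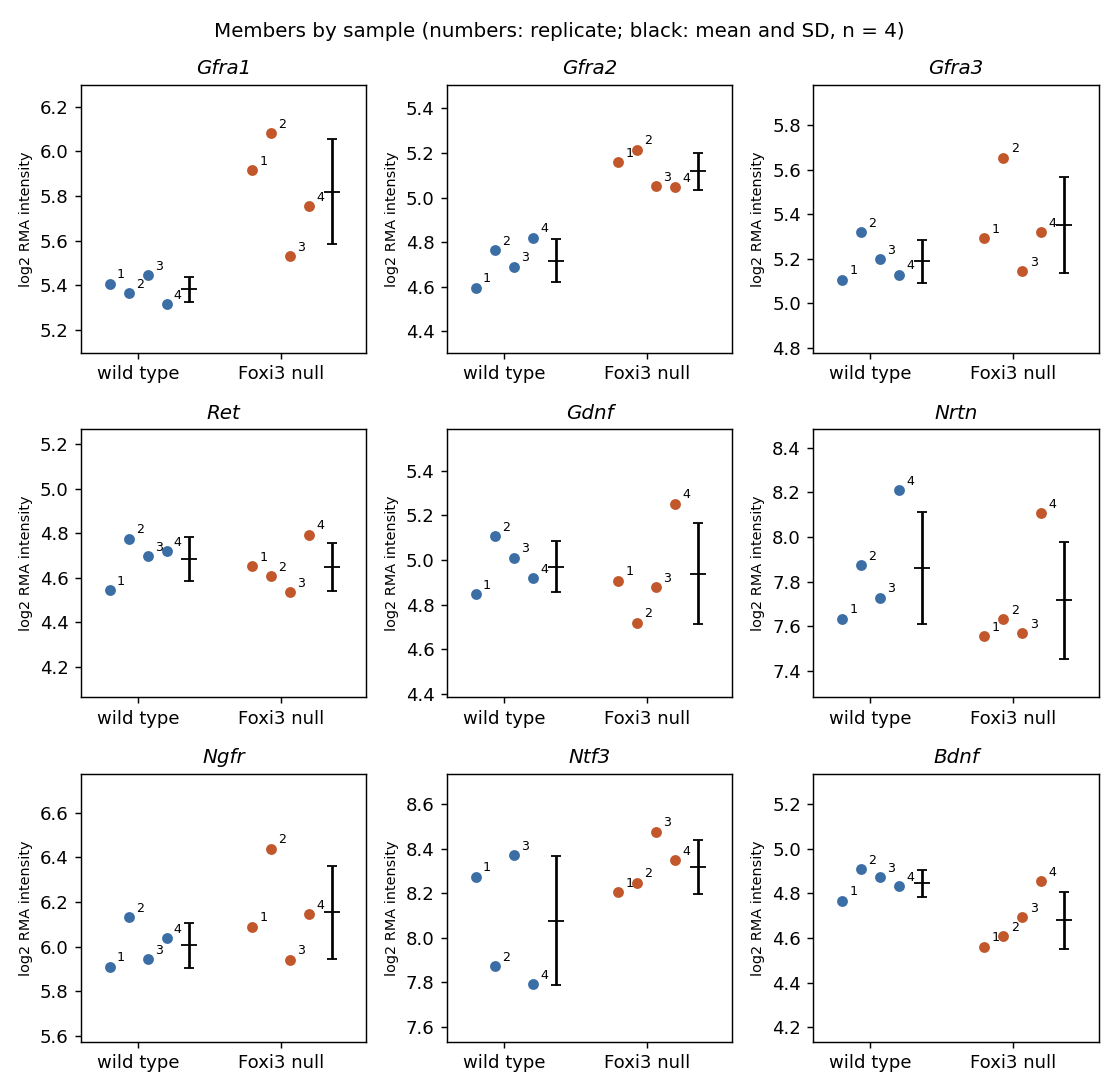
Log2 RMA intensity (y axis, each panel spanning the same range of 1.2) of the 9 genes in the 4 wild-type and 4 Foxi3 null samples, with replicate numbers beside the points and the mean and SD (n = 4) in black. The groups do not overlap for Gfra1 and Gfra2 and overlap for the other 7 genes.

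Gfra1 and Gfra2 lay 0.44 and 0.40 higher on the log2 scale, close to each other in size, although the scatter of the null samples differed. In both genes Foxi3 null 2 had the highest value and Foxi3 null 1 the next. For Gfra1 the difference was 0.35 without Foxi3 null 2, the sample with high fibroblast markers, and 0.53 without Foxi3 null 3, the male null sample. With sex read from Ddx3y as a covariate it was 0.40. Leaving out any 1 sample kept it between 0.35 and 0.53, and the lowest adjusted p over the alternatives was 0.315.

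Gfra3 (ENSMUSG00000024366), which encodes the preferred receptor of artemin, was at 5.29, 5.65, 5.14 and 5.32 in Foxi3 null 1 to 4. In wild type 1 to 4 it was at 5.11, 5.32, 5.20 and 5.13. Foxi3 null 2 alone lay above all wild-type samples. The difference of 0.16 (SE 0.11, unadjusted 95% interval −0.08 to 0.41) did not pass (limma adjusted p = 1.00), and it was 0.06 without Foxi3 null 2.

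Ret (ENSMUSG00000030110), the signalling receptor that GFRα proteins share, was close in both groups. It was at 4.65, 4.61, 4.54 and 4.79 in Foxi3 null 1 to 4 and at 4.54, 4.78, 4.70 and 4.72 in wild type 1 to 4. The ranges were nearly the same, and Foxi3 null 4 held the highest and Foxi3 null 3 the lowest value. The difference was −0.04 (SE 0.08, limma adjusted p = 1.00), with an unadjusted 95% interval of −0.22 to 0.14. A difference of the size of that of Gfra1 or Gfra2 lies outside this interval, but Ret was dim here and RMA compresses the differences of dim genes. The difference was −0.02 without Foxi3 null 2, −0.07 without both samples numbered 4 and −0.09 without Foxi3 null 4, and its sign turned to 0.000314 without Foxi3 null 3.

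Of the ligands, neither Gdnf nor Nrtn passed the test. Gdnf (ENSMUSG00000022144) was at 4.91, 4.72, 4.88 and 5.25 in Foxi3 null 1 to 4 and at 4.85, 5.11, 5.01 and 4.92 in wild type 1 to 4. The null samples enclosed the wild-type range, with Foxi3 null 2 lowest and Foxi3 null 4 highest. The difference was −0.03 (SE 0.12, unadjusted 95% interval −0.29 to 0.23, limma adjusted p = 1.00), and leaving out samples moved it both ways. It was −0.14 without Foxi3 null 4 and −0.15 without both samples numbered 4, and it turned to 0.04 without Foxi3 null 2 and to 0.01 without wild type 2.

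Nrtn (ENSMUSG00000039481), which encodes neurturin, was at 7.56, 7.63, 7.57 and 8.11 in Foxi3 null 1 to 4 and at 7.63, 7.87, 7.73 and 8.21 in wild type 1 to 4. In both groups the sample numbered 4 was highest, and these are the samples with high immediate-early genes. In 3 of 4 null samples Nrtn lay below every wild-type sample, although Foxi3 null 2 and wild type 1 differed only in the third decimal (7.631 and 7.634). Group means were 7.72 ± 0.26 and 7.86 ± 0.25 (SD, n = 4 each), and the difference of −0.15 (SE 0.16) did not pass (limma adjusted p = 1.00). It was −0.16 without both samples numbered 4, −0.28 without Foxi3 null 4 alone and −0.03 without wild type 4 alone. The part of handling in these levels was not tested beyond that.

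Ngfr (ENSMUSG00000000120), which encodes the p75 neurotrophin receptor, was at 6.09, 6.44, 5.94 and 6.15 in Foxi3 null 1 to 4. In wild type 1 to 4 it was at 5.91, 6.13, 5.94 and 6.04. The groups overlapped, and Foxi3 null 2 stood above the rest. The difference of 0.15 (SE 0.11, unadjusted 95% interval −0.10 to 0.39) did not pass (limma adjusted p = 1.00) and was 0.05 without Foxi3 null 2.

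Ntf3 (ENSMUSG00000049107) encodes neurotrophin 3, a ligand of the TrkC receptor that is known for its role in the innervation of Merkel cells. It was at 8.21, 8.25, 8.48 and 8.35 in Foxi3 null 1 to 4 and at 8.27, 7.87, 8.37 and 7.79 in wild type 1 to 4. Wild type 2 and 4 were low, and wild type 1 and 3 fell inside the range of the null samples. The difference was 0.24 (SE 0.14, unadjusted 95% interval −0.07 to 0.55, limma adjusted p = 1.00). It was 0.14 without both samples numbered 4, 0.15 without wild type 4, 0.17 without wild type 2 and 0.34 without wild type 3. Markers of Merkel cells, with a mean over 7 genes, were between 5.22 and 5.62 in null and between 5.46 and 5.91 in wild-type samples, and wild type 2 had the highest mean. Each of these 7 genes had a lower group mean in null, with differences from −0.76 for Atoh1 to −0.04 for Rab3c. Only 3 of the 7 were above the median gene intensity. Isl1, Krt20 and Rab3c were dim, with group means of 3.47 to 4.32 and small differences (−0.06, −0.14 and −0.04). The part of Merkel cells in the level of Ntf3 was not tested.

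Bdnf (ENSMUSG00000048482), which encodes brain derived neurotrophic factor, a ligand of the TrkB receptor, was at 4.56, 4.61, 4.69 and 4.85 in Foxi3 null 1 to 4. In wild type 1 to 4 it was at 4.77, 4.91, 4.87 and 4.83. In 3 of 4 null samples it lay below every wild-type sample, and Foxi3 null 4 lay within the wild-type range. The difference of −0.17 (SE 0.08, unadjusted 95% interval −0.34 to 0.01) did not pass (limma adjusted p = 1.00). It was −0.23 without both samples numbered 4.

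**Figure D2:**
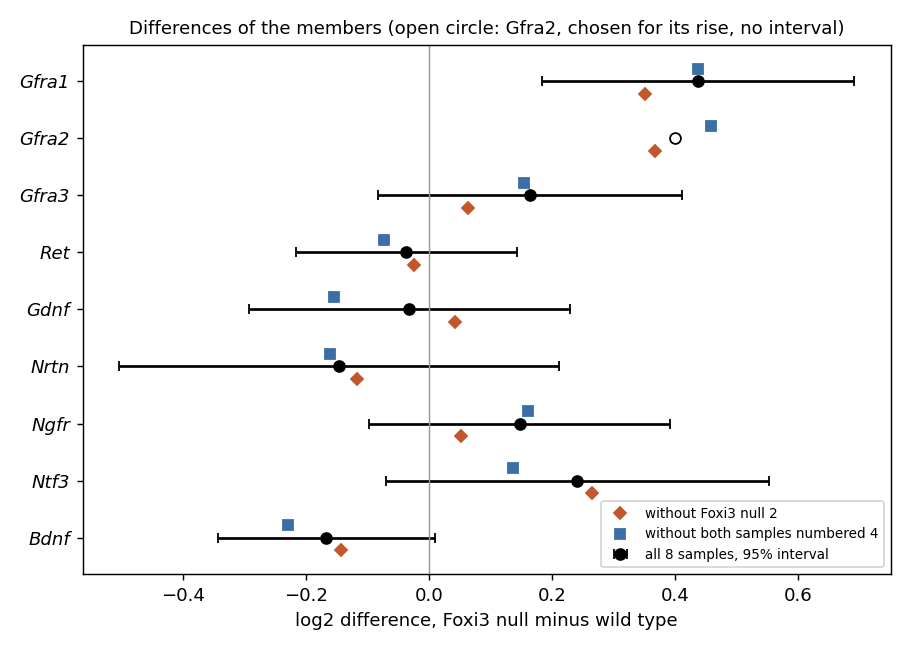
Log2 difference, Foxi3 null minus wild type (x axis), of the 9 genes, with unadjusted 95% intervals from limma for the 8 genes that were not picked for their level, and the values without Foxi3 null 2 (diamonds) and without both samples numbered 4 (squares). Gfra1 lies at 0.44 with an interval above 0, while the intervals of the other 7 genes that have one include 0.

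Over the 9 genes, 5 differences were above 0 and 4 below, with a median of 0.15. Over all 26165 genes the median was −0.01 and 46.02% were above 0. The count of 9 includes Gfra2, which was picked for its direction.

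Foxi3 null 2 had the highest value of all 8 samples for 4 of the 9 genes, which were Gfra1, Gfra2, Gfra3 and Ngfr. The count of 4 includes Gfra2, which was picked for its rise in the null samples. Over all genes, Foxi3 null 2 had the highest value for 7.73%. In the same sample the markers of dermal condensate had a mean over 7 genes of 6.23, against 5.41 to 5.80 elsewhere. Markers of Schwann cells had a mean over 10 genes of 5.90, against 5.67 to 5.80 elsewhere. Markers of neurons and axons had a mean over 8 genes of 4.30, against 3.83 to 4.00 elsewhere, and 0 of these 8 genes were above the median gene intensity. That mean was raised by Stmn2, which was at 6.61 in Foxi3 null 2 and at 2.76 to 3.34 elsewhere, while the other 7 genes had a mean of 3.96, within the 3.95 to 4.15 of the other samples. Endothelium markers, all dim, had a mean over 5 genes of 4.14 against 3.66 to 3.87 elsewhere, with 4 of the 5 highest here. Leukocyte markers had a mean over 5 genes of 4.36 against 4.09 to 4.25, with 1 of the 5 highest here. The means of skeletal muscle and melanoblast markers were not highest in Foxi3 null 2. The differences of Gfra1 and Gfra2 were 0.35 and 0.37 without Foxi3 null 2, while those of Gfra3 and Ngfr were 0.06 and 0.05. Without it the marker means of the null group minus wild type were −0.005 for fibroblasts, 0.03 for Schwann cells, −0.04 for neurons and axons, −0.13 for dermal condensate, −0.30 for Merkel cells and −0.32 for skeletal muscle. They were −0.02 for endothelium and −0.02 for leukocytes. The part of these cells in the level of Foxi3 null 2 was not tested.

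**Figure D3:**
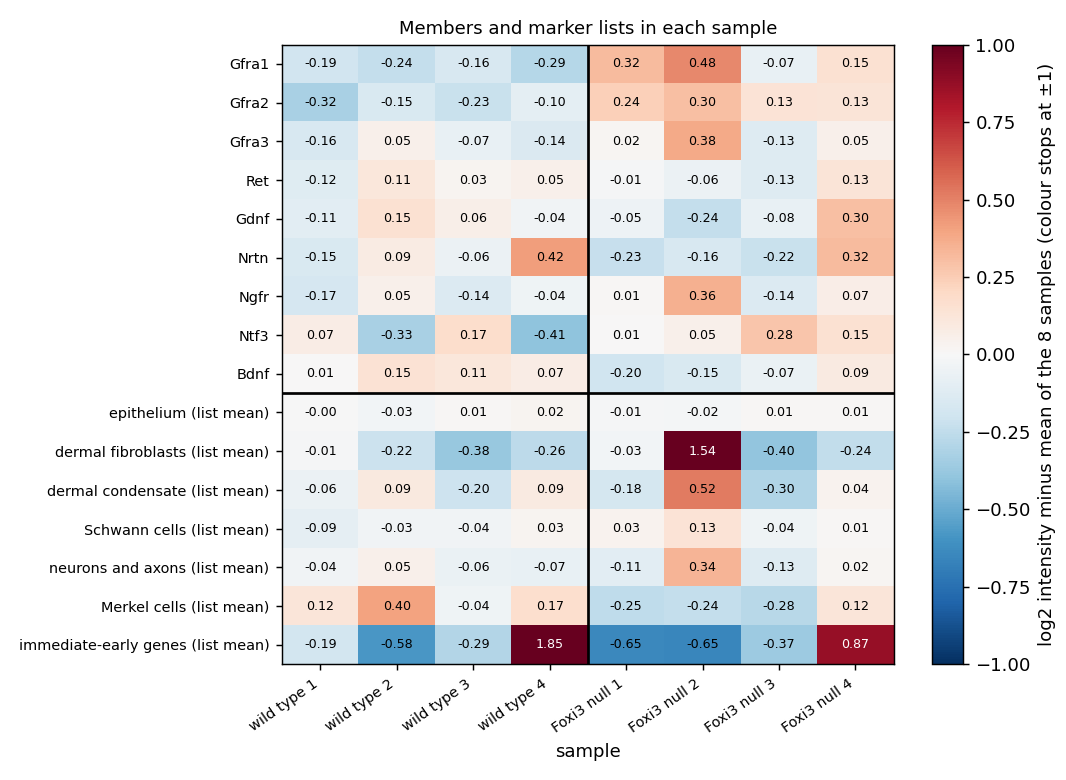
Log2 intensity minus the mean of the 8 samples, for the 9 genes (upper rows) and for the means of 7 marker lists (lower rows), in each wild-type and Foxi3 null sample, with the value printed in each cell. Gfra1, Gfra2, Gfra3 and Ngfr are highest in Foxi3 null 2, the sample with the highest fibroblast mean (8.90), and Nrtn is highest in the samples numbered 4, which have the highest immediate-early means (8.64 and 9.62).

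Several of the 9 genes were dim. As a reference for dim values, 1170 olfactory and vomeronasal receptor genes, which are not known from skin, had a median gene mean of 2.42 and a 95th percentile of 4.67. The mean over all samples was 4.67 for Ret, 4.76 for Bdnf, 4.92 for Gfra2 and 4.95 for Gdnf, all below the median gene mean of 5.22. Of the receptor reference genes, 5.04% were at or above the mean of Ret and 3.68% at or above that of Gfra2, against 0.94% for Gfra1 and 0.0855% each for Nrtn and Ntf3. No detection call was used, and the lower values cannot be told from background signal.

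The other genes of the GDNF family held 1 gene with a large difference, Ncam1, whose lower level in null samples was known when the list was drawn up. Ncam1 encodes a cell adhesion molecule that can act as a signalling receptor for GDNF together with GFRα1. It was at 5.36, 5.93, 5.28 and 5.56 in Foxi3 null 1 to 4 and at 6.44, 6.33, 6.18 and 6.47 in wild type 1 to 4. The groups did not overlap, with Foxi3 null 2 nearest to wild type, and the difference of −0.82 (SE 0.14) missed the threshold over all genes (limma adjusted p = 0.428). All 7 listed genes were analysed, and 0 passed, 1 lay above 0 and 6 below, with a median of −0.08. The next in order were Pspn, which encodes the ligand persephin, at −0.13, and Gfra4, which encodes its receptor, at −0.18. Gdf15, which encodes a distant relative of the GDNF ligands, was at −0.07, and all 3 of these overlapped between the groups (limma adjusted p = 1.00 each).

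Of the other neurotrophin genes, 12 of 13 listed were analysed, 0 passed, 6 lay above 0 and 6 below, with a median of 0.002. Pcsk5, which encodes a proprotein convertase, was at 0.18 and Sorcs2, which encodes a receptor of the sortilin family, at 0.15. Sorcs3, of the same family, was at 0.15 with each of the 4 null samples above the wild-type range, at values of 3.68 to 4.05 over both groups, which is dim. For these 3 genes limma gave adjusted p = 1.00 each.

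Adaptors and effectors of Ret, Trk receptors and p75 showed small differences. All 25 listed genes were analysed, 0 passed, 14 lay above 0 and 11 below, with a median of 0.01 and a range of −0.20 to 0.19. Maged1, which encodes a protein that binds p75, was at 0.18, and Grb10, which encodes an adaptor of receptor tyrosine kinases, was at 0.19. Traf6, which encodes a ubiquitin ligase of p75 signalling, was at −0.18, and Dok5, which encodes a substrate of Ret, was at −0.20 (limma adjusted p = 1.00 each). In the 3 lists together, the groups did not overlap for Ncam1 on the lower side and for Sorcs3 and Sh2b2 on the higher side. Over all genes 1.95% had groups that did not overlap, 0.871% with the null samples higher and 1.07% with them lower.

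**Figure D4:**
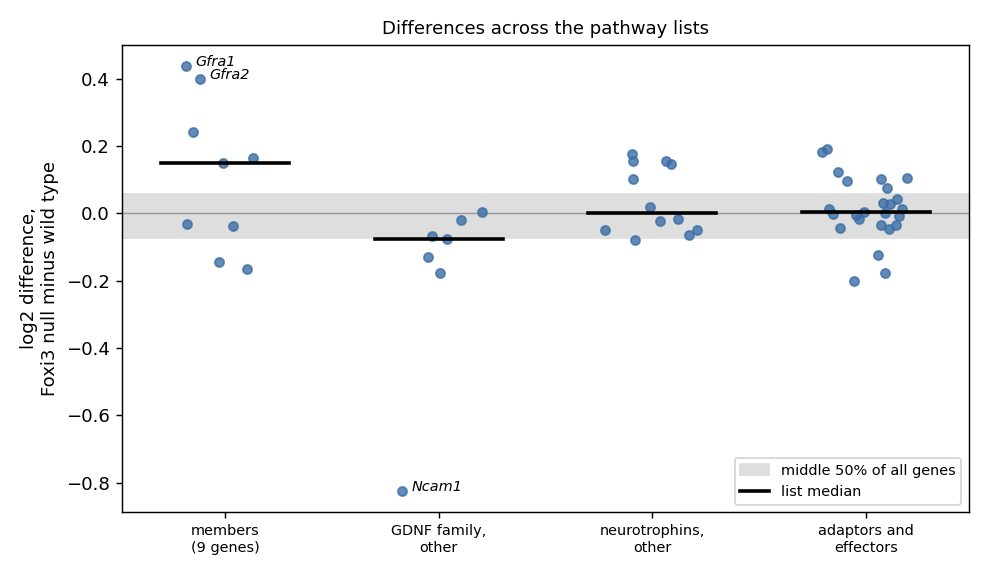
Log2 difference, Foxi3 null minus wild type (y axis), of the 9 genes and of 3 further lists of the same pathways, each point being a gene, with black bars at the list medians and a grey band over the middle 50% of all genes. Gfra1 (0.44) and Gfra2 (0.40) lie above and Ncam1 (−0.82) below the other genes shown.

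The genes most like Gfra2 over the 8 samples were Pgf (Pearson r = 0.945, Spearman rho = 0.738), Fndc1 (0.944 and 0.833) and Glg1 (0.941 and 0.905), among 12872 genes above the median gene mean. Pgf encodes placental growth factor, a relative of VEGF, Fndc1 a protein with fibronectin type III domains and Glg1 a glycoprotein of the Golgi. In all 3 the null samples lay above the wild-type samples, as they did in Gfra2, so the likeness contains the group difference that brought Gfra2 into the set. Gfra1 had the largest SD of the 9 genes over the 8 samples (0.28), and the genes most like it were Tmem143 (r = 0.932, rho = 0.952), Prosc (0.924 and 0.976) and Clpb (0.923 and 0.50). Their differences were small, at 0.13, 0.06 and 0.06 against 0.44 for Gfra1, and of the 3 only Prosc had groups that did not overlap. These correlations are descriptions, and no test was made of them.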

How the data were processed

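Expression was measured with 1 array per embryo, in 4 Foxi3 null and 4 wild-type samples, and the sample titles give the group and the replicate number. The deposited values are log2 intensities per Ensembl gene that the authors made with RMA, per the submitters' processing notes. This procedure subtracts background, brings arrays to a common distribution and combines the probes of a gene, and it compresses the differences of dim genes. The version of RMA, the probe annotation and the genome build are not stated in the sources, and no coordinates come from the arrays. The authors' deposited log2 group means matched the sample values to within 7.5e-09. A further 8 array columns matched no sample by name and were not used. The number of arrays limits the precision, since arrays have no read depth. Sample medians lay between 5.15 and 5.29, and no pair of samples was identical.

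A symbol with several rows was represented by the row of highest mean. The main test was limma 3.58.1 (lmFit and eBayes, run in R 4.3.3), two-sided over all 26165 genes, with Benjamini-Hochberg adjustment and a threshold of adjusted p under 0.05. The fit was tested on simulated data. Differences are Foxi3 null minus wild type, with SE and intervals from the moderated fit. The genes and lists were chosen with earlier results of these data known, so counts over them are descriptions. Named were the 9 genes, the 4 genes of lowest unadjusted p of each pathway list, the 3 genes most correlated with Gfra2 and with the gene of largest SD, and Foxi3 and Ddx3y as checks. Of the genes this rule names, 1 is not reported here. Sh2b2 was named after its values were seen. Marker lists for skeletal muscle (means of 4.89 to 5.46), melanoblasts (6.66 to 7.02), endothelium (3.66 to 4.14) and leukocytes (4.09 to 4.36) were also summarised per sample. The fit was repeated after quantile normalisation or median centring, on genes above the median gene mean, on 1 row per symbol, with trend and robust moderation, with array weights, with sex as a covariate, with a replicate block, at a looser threshold, and without single samples or both samples numbered 4.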

Additional observations from a re-analysis of the deposited data

Results flagged for a closer look

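In 3 of 66 sets of 4 samples examined (the 9 genes, Foxi3, the named pathway genes and the marker list means, in each group), 1 sample stood far from the other 3 of its group, measured as its gap to the nearest sample over the range of the group. About 5% of such sets are singled out by chance. Nrtn was high in Foxi3 null 4 (8.11 against 7.56 to 7.63), with a gap share of 0.865. The mean of the Merkel cell markers was high in Foxi3 null 4 (5.62 against 5.22 to 5.26), with a gap share of 0.904. Most of that rise came from Krt8 (9.77 against 8.62 to 9.02) and Krt18 (8.29 against 7.18 to 7.57). Krt20, Isl1 and Rab3c were also highest of the null samples there, by less. Atoh1 (5.05) and Pou4f3 (4.53) in Foxi3 null 4 lay within the range of the other null samples. The mean of the immediate-early genes was high in wild type 4 (9.62 against 7.19 to 7.58), with a gap share of 0.837.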

How the results depend on the processing

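Over the alternatives, 146 of 149 values of the 9 genes kept their direction and their side of the threshold where tested, and the others were changes of sign in values near 0. Part of this count was fixed in advance. A difference cannot change with 1 row per symbol, genes above the median gene mean, trend and robust moderation or the replicate block. The count also includes Gfra2, which was picked for its direction. None of the 8 tested genes came near the threshold, the lowest limma adjusted p being 0.315 for Gfra1. Leaving out 1 sample gave ranges of −0.0853 to 0.000314 for Ret and −0.136 to 0.0419 for Gdnf, with the sign turned without Foxi3 null 3 for Ret and without Foxi3 null 2 or wild type 2 for Gdnf. The cause was not tested. Under the same omissions Gfra1 lay between 0.351 and 0.534, Gfra2 between 0.360 and 0.434, and Nrtn between −0.276 and −0.0298. Gfra2, Ret, Gdnf and Bdnf have no value among genes above the median gene mean, because their means lie below it. Over all genes limma called 3, and between 0 and 4 when 1 sample was left out, with 0 without wild type 1, 2 or 4 (893, 780 and 815 genes at unadjusted p under 0.05). It called 0 without both samples numbered 4 (1688 genes at unadjusted p under 0.05) and 0 with the replicate number as a block (2339 genes at unadjusted p under 0.05). Each number has 1 null and 1 wild-type sample, so the block leaves the differences of Gfra1 (0.438) and Gfra2 (0.40) as they were. With the block none of the 8 tested genes was called. Deviations of same-numbered samples from their group means correlated across genes at 0.13, −0.0435, 0.49 and 0.358 for numbers 1 to 4. The values for numbers 3 and 4 were the highest of any null and wild-type pair. Number 2 was below 0 and Foxi3 null 2 correlated best with wild type 1 (0.162), so the number was not treated as a pairing. With the replicate block the SE of Nrtn was 0.06 against 0.158 without it, and that of Gdnf 0.122 against 0.115. Detection above background was not assessed, which limits the values of the dim genes most.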
